A study of Saccharomyces cerevisiae with 312 samples.

Results

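Yeast strains mutated in proteins of the mitochondrial ribosome were followed across a genetic interaction map. The strains were those whose gene symbol in the array annotation was MRPL, MRPS, MRP or RSM followed by a digit. The annotation held 64 such genes, and 40 of them had at least 1 feature measured on at least 80% of the arrays: 27 proteins of the large subunit and 13 of the small subunit. These 40 are called mitoribosomal strains here, and they are part of 4125 strains measured in all. Of the 24 that were left out, 10 belong to the large subunit and 13 to the small subunit, and MRP8 was assigned to neither. The share of measured genes was 62.5% among the mitoribosomal genes and 80.9% among all 5100 symbols. MRPL28 was just inside the limit, with a feature on 83.7% of arrays, and MRPS8 was just outside it, with 76.3%.

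The mitochondrial ribosome translates the small set of messages encoded in mitochondrial DNA, most of which specify subunits of the respiratory chain and the ATP synthase. Its large subunit holds the peptidyl transferase centre and its small subunit holds the decoding site, and nearly all of its proteins are made in the cytosol and imported. Budding yeast can live by fermentation without this machinery, but cells that stop translating in their mitochondria tend to lose the mitochondrial genome and form small, respiration-deficient colonies.

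Genetic interaction mapping crosses a query mutation into barcoded mutants, selects the double mutants, and compares their barcodes after growth in one pool with those of a reference population. The haploid strains derived from BY4741 and BY4742 and carried a query mutation and a pool mutation, and both the query and the reference populations were grown for 18 generations in G418 and nourseothricin, per the labels. The labels do not give the allele of each pool strain. The query population was labelled with Cy3 and the reference population with Cy5. The series held 312 arrays of 154 query mutations: 139 gene deletions, 11 DAMP alleles, which destabilise a transcript, and 4 TETO2 alleles, which place a gene behind a repressible promoter. The reference was a mix of many deletions on 252 arrays and a single deletion on 60 arrays, 59 of them the deletion of YEL068C. The 312 arrays came from 304 screens, and 140 queries had at least 2 screens and were tested. Since the labels leave unstated whether repeat screens came from separate cultures, a p-value here covers only the spread between the screens at hand, which may be technical.

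A log2 ratio here is the barcode level in the query population over that in the reference population, so a negative value means that a double mutant was less abundant than the same strain in the reference. Base 2 and this direction are not stated by the labels. The direction was read from strains lying near the query gene, which rarely combine with it in a spore, and 17 arrays of 2 reference pools were turned on that ground. If the common direction ran the other way, lower and higher would change places in every sentence. A strain was called lower or higher in a query where its adjusted p was below 0.05 over all 547925 strain and query pairs and its mean differed from 0 by at least 1. A low ratio cannot tell slower growth from fewer double mutants at the start.

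The mitoribosomal strains were called higher in a larger share of queries than strains in general. Of 4985 pairs of a mitoribosomal strain and a query, 219 were called higher, which is 4.39%, beside 1.21% of all pairs in the series. Another 107 were called lower, which is 2.15%, beside 2.33% of all pairs. The higher calls were fewer under quantile normalization (122, 2.45% beside 1.08% of all pairs), without replicate 1 of every query (82, 1.59% beside 0.607%) and without replicate 2 (106, 2.03% beside 0.619%). Every screen had the sign of the mean in 214 of the higher calls and in 105 of the lower calls. The size needed for a call favours screens of one sign, so these counts are no independent support. Calls touched 67 queries, of which 35 held a lower strain, 41 held a higher strain and 9 held both, and 73 queries held none. A mitoribosomal strain was called in a median of 8 queries, against 2 for all strains. The log2 ratio of a mitoribosomal strain had a median SD over queries of 0.67, against 0.34 for all strains, and a median SD between screens of one query of 0.53, against 0.38.

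A few queries held much of this response. The median log2 ratio over the mitoribosomal strains lay below 0 in 69 queries and above 0 in 71. It was below -0.5 in 8 queries and above 0.5 in 23. Its SD over queries was 0.476. The median over all strains had an SD of 0.0094, but each array was centred on that median, so this value is small by construction and is no yardstick. The 4 queries with the most lower calls, the deletions of TOM1, HTZ1, POC4 and SRO9, held 53 of them (49.5%). Of all strains, 4.01%, 6.36%, 7.49% and 4.56% were lower in these queries, against 2.33% of all pairs. The 5 queries with the most higher calls, NOP1, ISW2, RPS14A, FKS1 and SNR35, held 100 of them (45.7%). Of all strains, 4.51%, 3.15%, 2.17%, 2.62% and 2.32% were higher there, against 1.21% of all pairs. Both sets of queries were picked for these counts. The size of some medians given below depended on the processing. Under quantile normalization POC4 had -0.65, SEM1 -0.45, MSN2 -1.04, ISW2 1.01 and NOP1 1.04. With the 17 strains whose features were on at least 95% of arrays, TOM1 had -0.48, HTZ1 -0.60 and ISW2 0.86, and with features on at least 50% of arrays TOM1 had -0.86. With arrays as deposited OPI1 had -0.18.

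**Figure D1:**
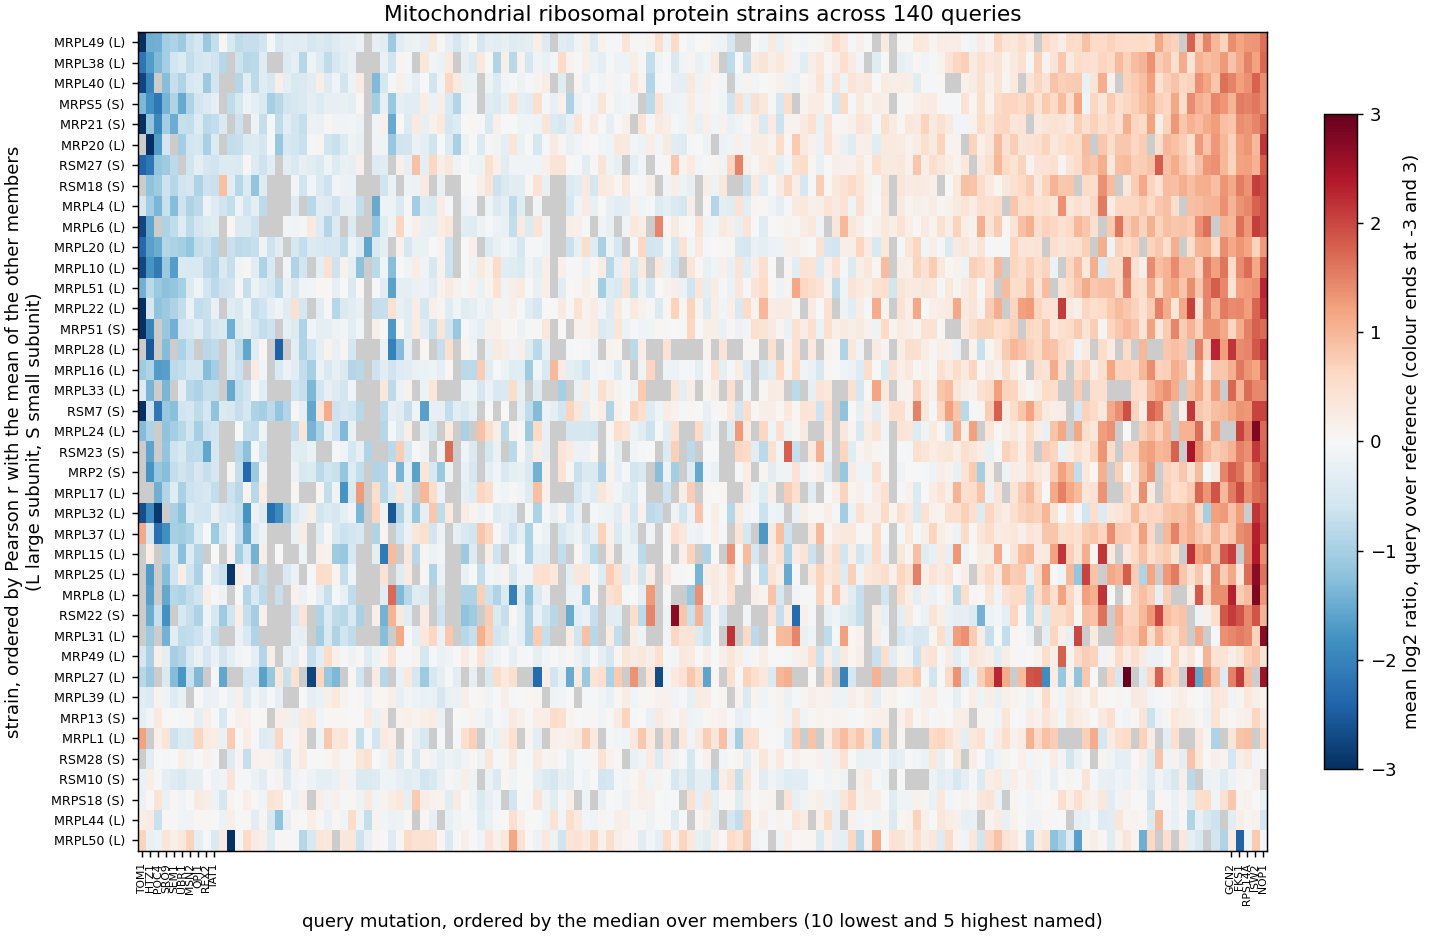
Mean log2 ratio, query over reference, of 40 mitoribosomal strains (rows, ordered by their correlation with the mean of the other mitoribosomal strains) in 140 queries (columns, ordered by the median over the strains). Blue is lower, red is higher and grey is not tested, and the upper rows change colour together from left to right while the bottom 7 rows, from MRP13 to MRPL50, do not.

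The deletion of TOM1, which encodes a large HECT-type ubiquitin ligase, gave the lowest ratios. The 28 strains tested had a median of -1.32, with -1.46 in screen 1 and -1.32 in screen 2. Of these, 13 were called lower and 1 was called higher, beside 4.01% and 1.97% of all strains in that query. MRP51, a small subunit protein, had log2 ratios of -5.27 and -4.40 in the TOM1 screens, a mean of -4.84 (SD 0.61, n = 2, adjusted p = 7.79e-27 by the limma-type fit over all pairs). RSM7, another small subunit protein, had -5.99 and -2.89, a mean of -4.44. Both screens were thus far below 0 for these strains, although RSM7 differed by several units between them.

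The large subunit protein MRPL49 had -4.50 and -4.10 in the TOM1 screens, and MRPL22 had -4.05 and -3.58. MRP21, of the small subunit, had -4.11 and -3.02. The 3 strains were low in each screen, by amounts well above the difference between screens. MRPL10 averaged -2.74, MRPL6 averaged -2.74 and MRPL40 averaged -2.75 (-1.33 and -4.16). MRPL20 averaged -2.36, from -1.57 and -3.15. The last 2 had widely spaced screens and were no longer called when replicate 2 of every query was left out. MRPL1, a large subunit protein, went the other way with 1.26 and 1.13 (mean 1.20, adjusted p = 0.00925). MRPS5 shows a disagreement between screens, with -3.61 and 0.94, and was not called (adjusted p = 0.072).

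The other low queries gave smaller and more even shifts. With the deletion of HTZ1, the histone variant H2A.Z, the median was -1.19 (screens -1.5 and -0.85), and 16 of 38 mitoribosomal strains were called lower beside 6.36% of all strains. With the deletion of POC4, a chaperone of proteasome core assembly, it was -1.18 (screens -0.81 and -1.45), and 16 of 28 were called lower beside 7.49%. SRO9, a cytoplasmic RNA-binding protein, had a median of -1.05, and 8 of 39 strains were called lower beside 4.56%. The SRO9 median rests mostly on screen 2, at -1.72, against -0.25 in screen 1.

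SEM1, a subunit of the proteasome lid, had a median of -0.79 (screens -1.0 and -0.64), and 5 of 36 strains were called lower beside 10.3% of all strains in that query. UBR1, the ubiquitin ligase of the N-end rule, had a median of -0.62 with 3 of 39 lower (0.626% of all strains). MSN2, a stress-response transcription factor, had -0.57 with 1 of 39 lower (0.0503%), and REX2, an RNA exonuclease, had -0.50 with 2 of 38 lower (0.331%). The REX2 median came from screens of -0.01 and -0.99. OPI1, a repressor of phospholipid synthesis genes, had -0.54 and TAT1, an amino acid permease, had -0.49, with no mitoribosomal strain called in either while 2.37% and 2.52% of all strains were lower. One OPI1 screen was among the turned arrays.

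Strains low in HTZ1 were of both subunits. RSM27, a small subunit protein, had -3.0 and -1.29 in the HTZ1 screens (mean -2.14), and MRP51 had -3.19 and -0.78 (mean -1.99). MRPL10 had -2.18 and -1.38 (mean -1.78), and MRPS5 had -2.51 and -1.13 (mean -1.82). MRP20, a large subunit protein, had the lowest mean there at -2.98, but its screens were -5.30 and -0.67 and its call was lost without replicate 1. In POC4 the lowest was the large subunit protein MRPL32, with -3.60 and -2.20, followed by MRPL37 with -2.25 and -2.22. MRP21 had -0.82 and -3.04 in the POC4 screens. In HTZ1 screen 1 was the lower screen for each of the 16 called strains.

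In the highest queries most mitoribosomal strains were above 0 in every screen. The DAMP allele of NOP1, the fibrillarin that methylates ribosomal RNA, gave a median of 1.72 (screens 1.70 and 1.56), and 27 of 39 strains were called higher beside 4.51% of all strains. The deletion of ISW2, a chromatin-remodelling ATPase, gave 1.53 (screens 1.84 and 1.13), with 23 of 38 higher beside 3.15%. The deletion of RPS14A, a cytosolic small subunit protein, gave 1.32 (screens 1.38 and 1.21), with 21 of 39 higher beside 2.17%. The screens of these queries differed by less than their distance from 0. In ISW2 the highest strains were of the large subunit, MRPL24 with 2.89 and 2.73, MRPL8 with 3.46 and 2.15 and MRPL25 with 3.74 and 1.70. The calls of NOP1 ran from 1.28 for MRPL20 to 2.68 for MRPL31, and every one had both screens above 0.

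FKS1, a catalytic subunit of glucan synthase, gave a median of 1.24 (screens 1.51 and 1.00), with 18 of 39 higher beside 2.62%. GCN2, the kinase that phosphorylates initiation factor 2 on amino acid shortage, gave 1.02 (screens 0.71 and 1.27), with 9 of 39 higher beside 6.25% of all strains. All 9 GCN2 calls were of the large subunit, and none of the 13 small subunit strains was called. The medians were closer than the calls, at 1.04 for the large subunit and 0.84 for the small subunit. The difference between subunits was not tested. Further queries with several higher strains were the snoRNA gene SNR35 with 11 (2.32% of all strains) and RNT1, the nuclear RNase III, with 10 (4.15%). LYS9 of lysine synthesis had 9 (2.91%), NOP56 of the box C/D snoRNPs had 8 (4.79%) and the elongation factor gene EFT2 had 7 (1.19%).

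**Figure D2:**
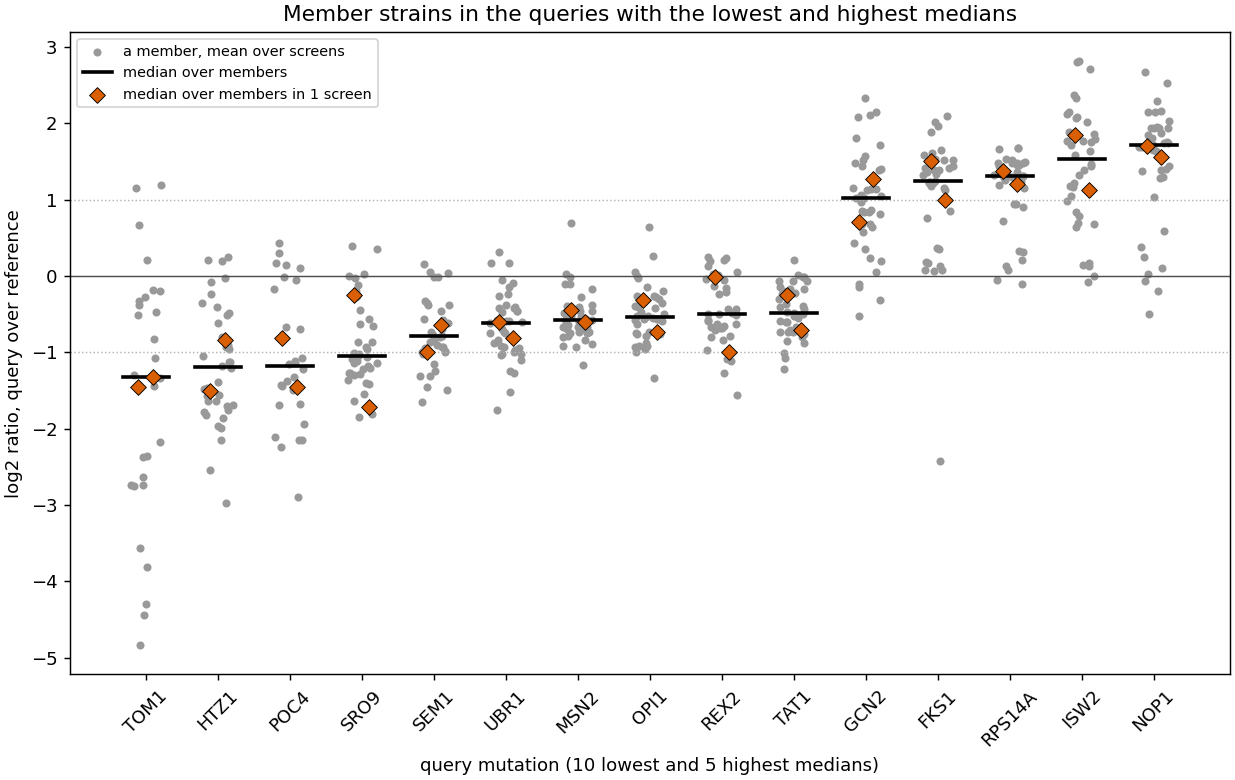
Log2 ratio, query over reference, of each mitoribosomal strain (grey, mean over screens) in the 10 queries with the lowest and the 5 with the highest medians, with the median over strains (bar) and the median within each screen (diamonds). The TOM1 strains spread from -4.84 to 1.20, while in the other low queries the strains lie closer together, and 1 FKS1 point, MRPL50 at -2.42, lies far below the rest.

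Some of the highest single pairs had nearly equal screens and others did not. MRPL22 had 2.13 and 2.18 with the NOP1 allele (mean 2.16, adjusted p = 7.76e-09), and MRPL51, a large subunit protein, had 2.18 and 2.39 (mean 2.29). MRPL27, also of the large subunit, had 3.29 and 3.28 with the deletion of RPS28A, a cytosolic small subunit protein (mean 3.29, adjusted p = 1.37e-06). In these pairs the screens lay much closer to each other than to 0. MRPL22 had 2.50 and 1.60 with the DAMP allele of NOP56 and 1.17 and 3.01 with the TETO2 allele of RAT1, the nuclear 5′ to 3′ exonuclease. MRPL6 had 2.63 and 1.54 with the deletion of ISW2. The call of MRPL22 with RAT1 was lost without replicate 2, and those of MRPL22 with NOP56 and MRPL6 with ISW2 without replicate 1.

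The same strains were low in some queries and high in others. Of the 40, 30 were called lower at least once, 34 were called higher at least once and 29 were called both ways. Calls were common among strains in general: of all 4125, 1950 were never called lower and 2002 were never called higher. The large subunit strain called most was MRPL22, lower in 3 queries and higher in 19, followed by MRPL51 (6 and 14), MRPL10 (7 and 12), MRPL27 (6 and 9), MRPL17 (2 and 12) and MRPL49 (6 and 8). Of the small subunit, RSM7 was lower in 5 and higher in 11, MRP51 in 7 and 9, MRP21 in 6 and 10, RSM27 in 3 and 7, RSM18 in 2 and 7 and MRPS5 in 3 and 4. Over all pairs, large subunit strains were called higher in 4.91% and lower in 2.38% of 3319 pairs, and small subunit strains in 3.36% and 1.68% of 1666 pairs.

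The small subunit share was lowered by strains whose means never reached the size limit of 1. Of 5 strains that were never called, RSM10, RSM28, MRP13 and MRPS18 belong to the small subunit and MRPL39 to the large one. Their largest sizes were between 0.60 and 0.86, and at an unadjusted p below 0.05 they passed the limma-type test in 23 of 132 queries (RSM10), 15 of 133 (MRPS18), 12 of 135 (MRP13), 5 of 134 (RSM28) and 3 of 134 (MRPL39). Some passed the adjusted p of that test and failed on size alone. Among them were MRPS18 with GCN2 (0.81, adjusted p = 0.00948, screens 1.49 and 0.13) and MRP13 with ISW2 (0.64, adjusted p = 0.0288). With the TOM1 deletion MRPS18 had -0.19 and -0.18, RSM10 had -0.31 and -0.08 and MRP13 had -0.33 and -0.21, on the same arrays on which MRP51 had its lowest values. Of all 4125 strains, 1308 were never called.

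The strains resembled each other across queries. Over the queries, the median Pearson r between mitoribosomal strains was 0.533 (780 pairs), and 52.4% of the pairs reached 0.5. For cytosolic ribosomal proteins the median was 0.303 with 28.1% of pairs, and for all strains -0.00 with 0.93%. Large subunit strains had a median r of 0.561 among themselves and of 0.521 with small subunit strains, which had 0.209 among themselves. The query medians of the 2 subunits had an r of 0.951 over 140 queries and the same sign in 124. These values are descriptions: the strains were measured on the same arrays against the same reference pools.

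The group divided into 31 strains that followed the rest closely and a few that did not. Each strain was compared with the mean of the other 39, and 31 had an r of at least 0.5, led by MRPL49 with 0.88, with a median of 0.79 over all 40. Another 7 had an r below 0.25: MRP13 (0.21), MRPL1 (0.14), RSM28 (0.09), RSM10 (0.05), MRPS18 (0.05), MRPL44 (-0.06) and MRPL50 (-0.11). Their SD over queries and between screens of one query was 0.20 and 0.27 for MRP13, 0.25 and 0.38 for RSM28 and 0.23 and 0.27 for RSM10. It was 0.25 and 0.31 for MRPS18, 0.30 and 0.49 for MRPL44, 0.45 and 0.45 for MRPL1 and 0.60 and 0.43 for MRPL50. Where the first is smaller, a low r need not mean another profile. MRP2, MRPL28, MRPL31 and RSM22 also had a smaller first value and still reached 0.5. The 7 strains below 0.25 held 11 calls in all. MRPL50, a large subunit protein, held 7 of them and was the only one of the 40 called lower with FKS1, where 6.83% of all strains were.

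MRPL50 had a pattern of its own. It had -2.84 and -4.77 with the deletion of GET3, an ATPase that delivers tail-anchored proteins to the endoplasmic reticulum (mean -3.81, adjusted p = 1.46e-22), and -2.46 and -2.38 with the deletion of FKS1 (mean -2.42, adjusted p = 5.56e-11). It was also lower with the deletions of the J-protein CAJ1 (-1.63), IRS4 (-1.47) and the acetyltransferase MAK3 (-1.24), and higher with those of YJR084W (1.17) and the osmotic stress kinase PBS2 (1.10). The strains most like it, chosen after its values were seen, were SOL3, a gene of the pentose phosphate pathway, with an r of 0.879, the potassium channel gene TOK1 with 0.855 and ICL2, a mitochondrial lyase, with 0.848. MRPL25, of the large subunit, was low with GET3 as well (-2.59 and -3.22), and its r with the mean of the other mitoribosomal strains was 0.66.

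There were 14 strains with 1 feature and 17 with 2, whose r over arrays ran from 0.34 for MRP13 to 0.89 for MRPL1 with a median of 0.74. Among neighbouring genes, MRP49 and MRPL38 lie 2 genes apart and had an r of 0.452.

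Screens of a query agreed in part. The median over mitoribosomal strains in screen 1 had an r of 0.687 and a rho of 0.586 with that in screen 2 (140 queries), an r of 0.652 without the 2 queries farthest from the centre, and an r of 0.687 over the 139 queries whose screens had different reference pools. The signs matched in 91 queries. The median distance between screens was 0.286 and the highest was 1.47, in SRO9. Over 304 screens, the mitoribosomal median had an r of 0.07 with the SD of all strains in the screen, -0.00 with the number of strains measured and 0.14 with the number of mitoribosomal strains measured. Each of the 27 reference pools with at least 5 screens held screens with medians of both signs.

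**Figure D3:**
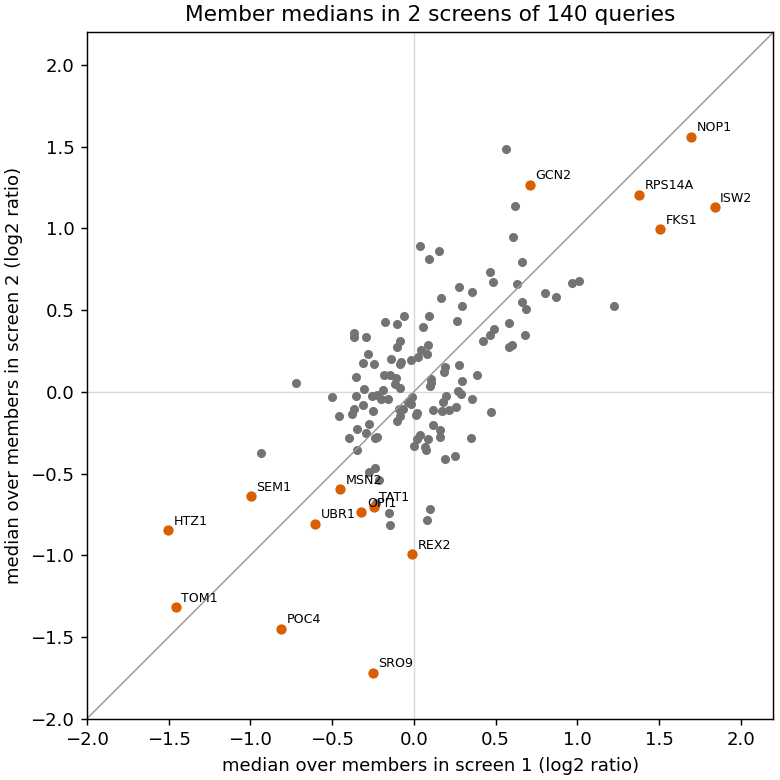
Median log2 ratio over the mitoribosomal strains in screen 1 (horizontal) against screen 2 (vertical) for 140 queries, with equal values on the diagonal and the 15 queries with the lowest and highest medians in orange. NOP1, RPS14A and TOM1 lie near the diagonal, while SRO9, at -0.25 and -1.72, lies farthest from it.

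Strains most like the mitoribosomal mean were mutants of other mitochondrial gene expression proteins. Of 4041 other strains compared, 122 reached an r of at least 0.5. The 10 highest were CCM1, a protein that stabilises the small ribosomal RNA (0.899), PET112, a subunit of the enzyme that forms glutaminyl tRNA (0.883), and ISM1, the isoleucyl tRNA synthetase (0.879). MRH4, a helicase of large subunit assembly, had 0.872, the ribosomal RNA methyltransferase MRM1 had 0.871 and the glutamyl tRNA synthetase MSE1 had 0.868. DSS1, an RNase of the mitochondrial degradosome, had 0.863, the threonyl tRNA synthetase MST1 had 0.847, SOV1, needed for VAR1 synthesis, had 0.845 and the elongation factor MEF1 had 0.835. All of them act in mitochondria. At the other end were BUL2 of a ubiquitin ligase complex (-0.44), YIP3 of vesicle transport (-0.43), the cyclin gene CLB2 (-0.42), FRT1 of the endoplasmic reticulum membrane (-0.41) and GAL80, a repressor of galactose genes (-0.40).

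Lists of related genes resembled the mitoribosomal strains to different degrees. Translation and ribosome assembly factors (16 of 20 genes measured) had query medians with an r of 0.929 with those of the mitoribosomal strains, and 13 of the 16 reached an r of 0.5 with the mitoribosomal mean. The r of medians was 0.925 for tRNA synthetases and modifiers (10 of 16 measured, 8 reached 0.5) and 0.872 for mitochondrial DNA maintenance and transcription (8 of 11, 7 reached 0.5). It was 0.745 for the respiratory chain and ATP synthase (39 of 50, 27 reached 0.5) and 0.739 for translational activators (15 of 16, 14 reached 0.5). Mitochondrial ribosomal proteins with other names (7 of 13, 2 reached 0.5) had 0.462, the lowest of the mitochondrial lists, and cytosolic ribosomal proteins (51 of 123) had 0.202. All lists share the same arrays.

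In calls the lists differed more. The tRNA list was higher in 5.11% of its pairs and lower in 2.22%, and the DNA maintenance list in 5.09% and 2.59%. Assembly factors were higher in 3.57% and lower in 3.33%, activators in 2.43% and 2.58%, respiratory chain genes in 2.28% and 1.90% and cytosolic ribosomal proteins in 4.66% and 4.02%. The ribosomal proteins with other names were higher in 2.19% and lower in 2.19%, and only PET123 (0.74) and SWS2 (0.63), both of the small subunit, reached an r of 0.5 with the mitoribosomal mean.

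TOM1 separated the lists. Its median was -3.61 for the 8 strains of DNA maintenance and transcription, 6 of them called lower, among them ABF2, which packages mitochondrial DNA (-4.46), and MGM101, a DNA repair protein (-4.78). It was -1.32 for the mitoribosomal strains, -0.98 for assembly factors and -0.71 for the tRNA list. SWS2 and MEF2, an elongation factor of ribosome recycling, both had -6.81. By contrast, the TOM1 median was 0.08 for translational activators and -0.03 for the respiratory chain. Among the activators AEP1 (-5.05), AEP2 (-6.10) and AEP3 (-4.36), which act on messages of ATP synthase subunits, were called lower. In the respiratory chain list the ATP synthase subunits ATP7 (-4.59) and ATP4 (-3.34) were.

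In HTZ1 and SEM1 the lists of the respiratory chain and of translational activators were low as well. With the deletion of HTZ1 the respiratory chain list had a median of -1.08 with 19 of 37 lower, and activators had -1.22, while cytosolic ribosomal proteins had 0.54. With the deletion of SEM1 the respiratory chain list had -1.11 with 20 of 36 lower and activators -1.15 with 9 of 15, both below the mitoribosomal median of -0.79. GCN2 gave 0.28 for the respiratory chain and 0.79 for cytosolic ribosomal proteins, of which 17 of 45 were called higher, so its higher calls were not limited to mitochondrial genes. The differences between lists were not tested.

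**Figure D4:**
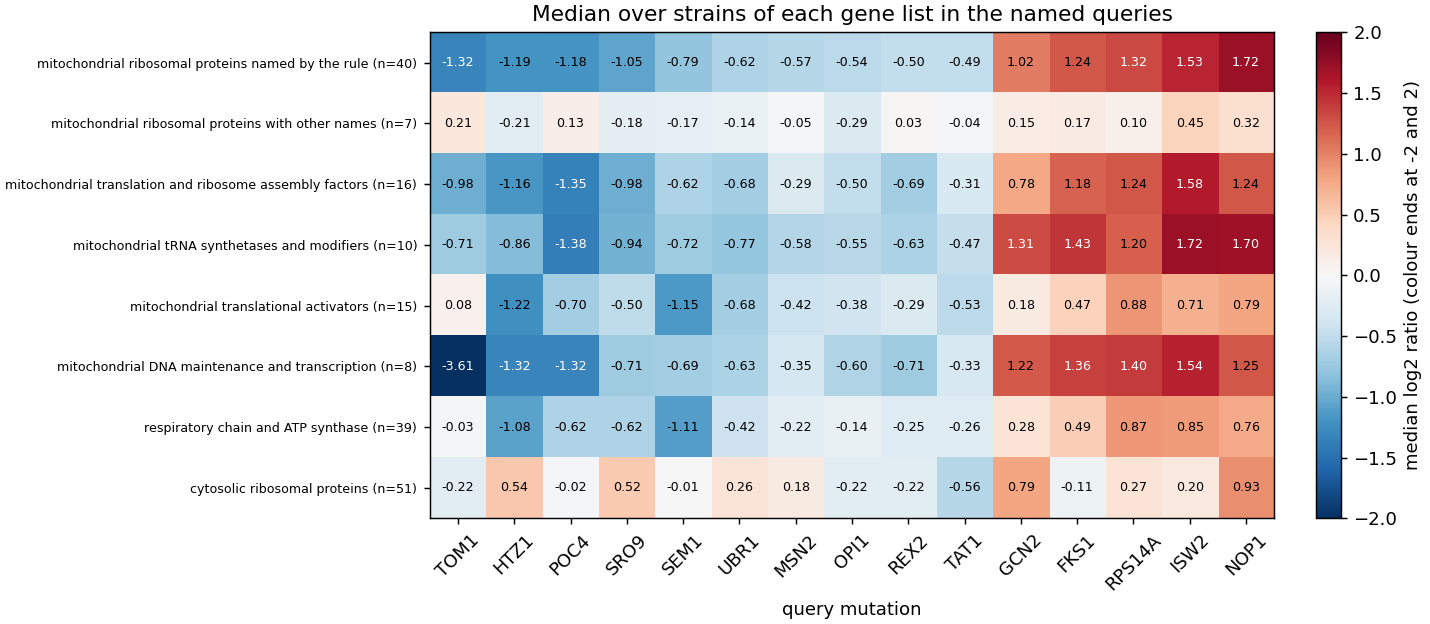
Median log2 ratio, query over reference, over the measured strains of 8 gene lists (rows) in the 10 queries with the lowest and the 5 with the highest mitoribosomal medians (columns), printed in each cell. Mitoribosomal strains, assembly factors, tRNA genes and DNA maintenance genes keep the same sign in all 15 queries, and TOM1 reads -3.61 for DNA maintenance and -0.03 for the respiratory chain.

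Queries were also compared by class, each class against all other tested queries. With 12 proteasome mutants as queries, 11 of 40 mitoribosomal strains were lower and 1 was higher at an adjusted p below 0.05 and a difference of at least 0.5, beside 10.3% lower and 1.55% higher of all 4125 strains. The median difference was -0.34, against -0.00 for all strains, and 32 of 40 lay below 0. MRPL32 had the largest difference. Its log2 ratio was -3.30 in IRC25 and -3.21 in NAS2, each from 1 screen. It averaged -2.90 in POC4, -2.55 in PRE9, -2.26 in RPN14 (-4.17 and -0.35) and -1.92 in ADD66. The other averages were -0.98 in SEM1, -0.78 in NAS6, -0.55 in HUL5, -0.39 in RPN10, -0.16 in UBP6 and 0.60 in RPN4. These values give a difference of -1.54 from the other queries (adjusted p = 2.41e-07 by the limma-type fit). The class fit also took queries in which a strain had 1 screen. The others called lower were MRPL27 (-0.95), MRPL51 (-0.79), MRPL33 (-0.77), MRPS5 (-0.75), MRP51 (-0.73), MRPL10 (-0.71), MRP21 (-0.69), MRPL37 (-0.57), MRPL6 (-0.55) and MRPL4 (-0.52). MRPL31 was higher (0.79, adjusted p = 0.0381), with values from 1 screen each in POC4 (4.20), NAS6 (2.71) and RPN14 (2.21). It lay below 0 in 4 of 9 proteasome queries.

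The difference of the proteasome class was uneven over its queries and rested partly on 1 reference pool. The query median was lowest for the core assembly chaperone POC4 (-1.18) and the lid subunit SEM1 (-0.79). It lay between -0.35 and -0.03 for the chaperones RPN14, ADD66, IRC25, NAS2 and NAS6, the ligase HUL5, the core subunit PRE9 and the deubiquitinase UBP6. The IRC25 value (-0.22) rests on only 11 strains, and its screens had medians of -0.93 (35 strains) and -0.38 (11 strains). The query median was above 0 for the ubiquitin receptor RPN10 (0.55, 5 strains higher beside 3.03% of all strains) and for RPN4, the transcription factor of proteasome genes (0.87, 6 higher beside 2.82%). A pool with a single-deletion reference held 8 proteasome screens, with medians from -0.93 to 0.51 (median -0.22), and 3 other screens, with medians from 0.25 to 1.01 (median 0.61). In that pool MRPL32 averaged -2.84 ± 0.99 (SD, n = 8) in proteasome screens and -1.59 ± 0.36 (SD, n = 3) in other screens, and MRPL31 averaged 3.37 ± 1.03 (SD, n = 3) in proteasome screens and 5.04 in the 1 other screen. Without this pool, 4 strains were lower (MRPL32, MRP21, MRPL10 and MRPL51) beside 7.66% of all strains, and none was higher beside 1.16%. With mixed-reference screens alone, 1 was lower, MRPL10, beside 8.99% of all strains, and none was higher beside 0.582%.

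**Figure D5:**
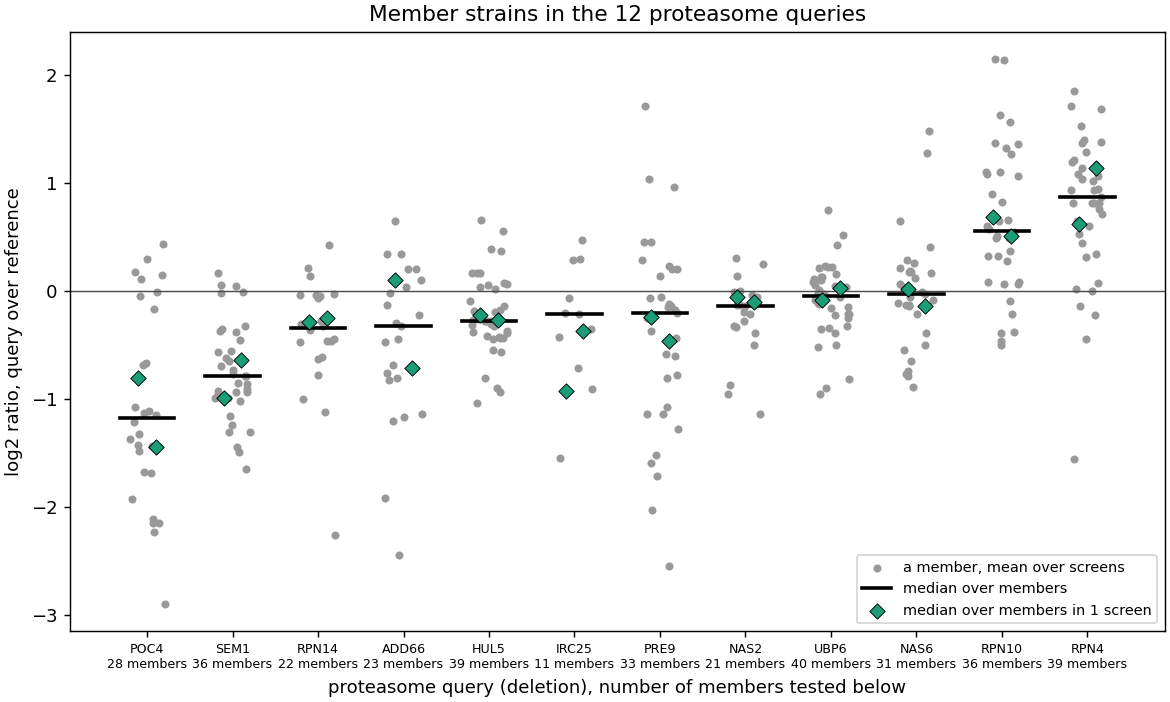
Log2 ratio, query over reference, of each mitoribosomal strain (grey, mean over screens) in the 12 proteasome queries, ordered by the median over strains (bar), with the median within each screen (diamonds) and the number of strains tested under each name. POC4 and SEM1 lie low, 8 queries lie between -0.35 and -0.03, and RPN10 and RPN4 lie above 0.

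Of the other 11 classes, snoRNA genes alone had called strains: MRPL1 (-0.63, adjusted p = 0.0101) and MRPL25 (-0.89, adjusted p = 0.0297) were lower beside 1.07% of all strains. None was higher with snoRNA genes, where 0.582% of all strains were. In the remaining 10 classes the limma-type fit called none of the 40. Of all strains, cytosolic ribosomal proteins as queries gave 0.339% lower and 0.267% higher, snoRNP proteins 1.07% and 0.558%, nuclear RNA processing 2.35% and 0.824%, OCA genes 0.291% and 0.0242% and tRNA modification 0.17% and 0.0242%. Amino acid and nucleotide supply gave 0.17% lower, cytoplasmic mRNA decay 0.0727%, cytosolic translation and rescue 0.0485%, ubiquitin enzymes 0.0242% and chromatin 0%, with 0% higher in each of these. At an unadjusted p below 0.05, 11 lower and 15 higher values passed among the 400 tests of mitoribosomal strains (2.75% and 3.75%), beside 4.94% and 4.15% of the tests of all strains. The shares differed between classes. With snoRNP proteins 8 of 40 were higher (20% beside 9.04%) and 4 lower (10% beside 9.36%). With cytoplasmic mRNA decay 4 were lower (10% beside 2.72%) and 0 higher (0% beside 1.04%). With cytosolic ribosomal proteins 4 were higher (10% beside 6.13%) and 0 lower (0% beside 4.53%). With nuclear RNA processing 0 were higher (0% beside 11.3%) and 1 lower (2.5% beside 10.3%). With cytosolic ribosomal protein queries 36 of 40 strains lay above 0, with a median difference of 0.26, and with queries of cytoplasmic mRNA decay 36 of 40 lay below 0, with a median of -0.33.

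Screens against a single-deletion reference were compared with screens against the mixed reference within 44 queries. MRPL28 (-0.90), MRP2 (-0.69), MRPL44 (-0.59) and RSM7 (-0.50) were lower against the single deletion, and MRPL31 (1.46), RSM23 (0.70) and MRPL17 (0.69) were higher, beside 4.8% lower and 2.28% higher of all strains. Of the 45 single-deletion screens 43 were replicate 1, and 41 of the 48 mixed screens were replicate 2, so the kind of reference and the replicate number nearly cannot be told apart. With the replicate number as a block, none of the 40 was called, and over all strains 3 were lower and 12 higher.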

How the data were processed

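The deposited values are ratios of 2 dye channels, 1 per array feature, taken here as log2 values. Nothing in the labels or headers gives their log base, sign, centring or earlier normalization, and per the labels the query was in Cy3 and the reference in Cy5. Deposited array medians ran from -0.19 to 0.48. Ratios hide the signal over background, and precision is limited by the number of arrays. An array measured 3290 to 4125 of the 4125 strains.

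Features with a symbol on at least 80% of arrays (8632 of 15744) were averaged per gene, and 2660 features without a symbol were left out. Arrays were centred on their median, and 17 were turned because strains within 25 genes of their query had a positive median. Of 48516 array pairs, 648 correlated below -0.3 as deposited, so the common direction rests on linkage alone. Arrays of one screen were averaged, and pairs within 100 genes were left out. RefSeq annotation gave names and gene order only (5098 of 5100 symbols matched).

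Query means were tested against 0 with a moderated fit over all queries (prior df 4.82), computed with Python 3.11.15, numpy 2.4.6, pandas 2.3.3 and scipy 1.17.1 and checked against limma 3.58.1 in R 4.3.3, with Benjamini-Hochberg adjustment over all pairs. It was tested on simulated data. Class and reference contrasts used the same limma-type test on query means and on screens with the query as a term, adjusted over strains, with a size of at least 0.5. Named queries were the 10 lowest and 5 highest medians. Named pairs were the 12 lower and 6 higher pairs of smallest adjusted p among those with every screen of one sign. Named strains were the 6 most called of each subunit and those never called. The members and lists were chosen with earlier results of these data known. Alternatives covered centring, quantile normalization, feature limits, blocks, reference type and left-out replicates. Sequences were not used here.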

Additional observations from a re-analysis of the deposited data

Results flagged for a closer look

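Within the proteasome class the deletions of POC4 and RPN4 went opposite ways. The median over mitoribosomal strains was -1.18 in POC4 (screens -0.81 and -1.45) and 0.87 in RPN4 (screens 0.62 and 1.14). The comparison was chosen after the values were seen, so it is a description with its size. POC4 minus RPN4 had a median of -2.14 over the 27 mitoribosomal strains tested in both, and 17 of them were lower and none was higher in POC4 by the limma-type fit, beside 5.64% lower and 12.9% higher of 3581 strains. Over all those strains the median difference was 0.07. No sample stood apart in the queries with 4 screens, PUS1, SXM1 and VMS1, by Dixon's test of the screen medians. With 4 values this test can flag little, and queries with fewer screens were not covered by it.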

How the results depend on the processing

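Depth is unknown. Of the called pairs, 7 had screens of both signs, and the mean of a called pair turned in 3 cases without replicate 1, 2 without replicate 2, 2 with arrays as deposited and 2 with the pool block. Against 107 lower and 219 higher pairs, arrays as deposited gave 99 and 196, no centring 103 and 247 and quantile normalization 99 and 122, so the lower share of calls was 32.8%, and 44.8% under quantile normalization. Counts hide changes in membership: quantile normalization shared 51 lower and 93 higher calls with the reported ones, and the pool block, with 139 and 217 calls, shared 85 and 156. Features on at least 95% of arrays left 17 strains with 46 lower and 82 higher pairs. Leaving out each replicate number in turn gave 72 to 110 lower and 82 to 225 higher pairs, with most queries at 1 screen without replicate 1 or 2, and without replicate 1 shared 36 lower and 56 higher calls. For the proteasome class the 11 lower strains became 6 under quantile normalization, 4 at the 95% limit, 4 without the shared pool, 1 with mixed references and 3 to 11 without a replicate. Of the 11 strains themselves, 2 stayed lower without replicate 1, 6 without replicate 2 and 7 with the pool block. In 184 repeats of the 12 called class values, 56 lost their call. The 1 higher strain, MRPL31, became 2 without centring and at the 50% limit, and 0 under quantile normalization, the 95% limit, the pool block, the replicate block, mixed references, without the shared pool or without the turned arrays, and 0 to 1 without a replicate. The 2 calls of other classes became 6 at the 50% limit, 1 at the 95% limit, 0 with mixed references and 0 to 6 without a replicate. The 7 calls of the reference type became 4 under quantile normalization and at the 95% limit, and 0 with the replicate block. Apart from the settings that use fewer strains or screens, the cause was not tested. Same-numbered screens do not pair across queries as a whole (median r 0.01 over 8515 query pairs, 24.2% above 0.1, highest 0.87; some queries share their reference pools), and the replicate block gave 109 lower and 221 higher pairs. The setting without the turned arrays, the one with linked strains left out of the fit (115 lower and 226 higher pairs) and the POC4 and RPN4 comparison were chosen after seeing the data. The named pairs were picked for small p and screens of one sign, so their stability was not counted as support. Of 219 repeats of the 15 named query medians, 22 moved by more than the SD between screens of the query, with no sign change. That SD came from 2 screens and was large where they disagreed, as in SRO9 (1.04) and REX2 (0.70). Leaving out 1 screen can hardly move a median by that much. Both screen medians of each named query had the same sign, so leaving out a screen could hardly change it. Those repeats therefore do not measure stability.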

Other observations

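The 14 queries with 1 screen were not tested. Their medians over mitoribosomal strains ran from -0.55 with the deletion of EDC2, a factor of mRNA decapping, where 30 of 35 strains lay below 0, to 0.36 with the deletion of CAP1, an actin capping protein, where 26 of 36 lay above 0. The others were -0.28 (SNR64), -0.28 (PBY1), -0.26 (SNR65), -0.25 (YIL096C, 13 strains), -0.11 (NMD4), 0.01 (THR4), 0.07 (FPR4), 0.08 (SNR68), 0.09 (YCR016W), 0.18 (AIR2), 0.19 (the DAMP allele of MTQ2) and 0.24 (SNR67). None reached the level of the 4 lowest or 5 highest tested queries. EDC2 lay below OPI1 (-0.54), REX2 (-0.50) and TAT1 (-0.49), which were among the 10 lowest tested queries.

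Further strains with a low likeness to the mitoribosomal mean had other nearest strains, listed here after their values were seen. The nearest strains were picked as the highest r of all strains compared, so these r values are selected. MRPL44 was most like WSC4, a cell wall sensor gene, with an r of 0.631, and FMP42, which lies 4 genes away, with 0.574. MRPL1 was most like TDH1, a glycolytic dehydrogenase, with 0.585, and CBP1, an activator of cytochrome b messages, with 0.563. RSM10 was most like ROT1, a cell wall and folding factor, with 0.521.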
